A study of Mus musculus with 8 samples.

Results

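Wnt7b and Wnt9a encode secreted Wnt ligands, and the DNA methylation of their loci was followed in tumors and lung metastases of the 4T1 model. 4T1 cells come from a BALB/c mammary carcinoma, can be transplanted into mice of that strain and form lung metastases. The members are the measured CpG positions, here called sites, in a pair of windows of the deposited coordinates. The Wnt7b window runs from 85360000 to 85415000 on chromosome 15 (55 kb) and the Wnt9a window from 59118000 to 59149000 on chromosome 11 (31 kb). They held 561 of the 136069 sites in the series, 327 at Wnt7b and 234 at Wnt9a. The loci were chosen with the differences between the groups below already known, so their values are a description and no p-value is given for them.

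The samples were 3 lung metastases marked TVI, 3 lung metastases marked MFP and 2 primary mammary tumors marked MFP, all of 4T1 cells in BALB/c mice. The labels do not spell out MFP or TVI, give no age or further treatment, and do not say which samples, if any, share an animal. The spread between samples, which any p-value here measures, may therefore be technical. No primary tumor was marked TVI, so in the comparison of TVI metastases with tumors the organ and the TVI mark cannot be told apart.

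Wnt proteins carry a lipid, leave the cell with the help of the carrier Wls, and bind Frizzled receptors together with the co-receptors Lrp5 or Lrp6. In the canonical branch this stops the Axin, Apc and Gsk3b complex from degrading beta-catenin, which then acts with Tcf and Lef factors in the nucleus. Wnt7b is a canonical ligand known from lung and mammary development, and it can also signal through the Reck and Adgra2 co-receptor pair. Wnt9a is a ligand known from joint and skeletal development and from blood stem cell emergence in zebrafish. In mammals, CpG-rich stretches at gene starts are mostly free of methylation, and methylation there often goes with a silent gene, whereas the shores of such stretches and distant regulatory elements vary more between tissues.

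The build of the coordinates was checked before the loci were described. The submitters' processing notes name mm10, but on chromosome 7 the positions of 557 of 3166 sites, up to 152129719, exceeded the end of the last gene in GRCm38.p6, the assembly behind mm10. The windows were defined on the view that the coordinates are mm9. The spacing of CpGs in RefSeq promoter sequences was matched to the spacing of the sites, which needs no coordinates. Near Wnt7b, 5 of 5 promoters placed within 12 Mb lay at the same distance, 169569 bases, below their GRCm38.p6 positions, the nearest on either side being those of Pla2g6 and Tubgcp6. Near Wnt9a, 7 of 7 lay 186497 bases below, the nearest being those of Arf1 and Srebf1. Both windows therefore lie between placed promoters that share 1 shift, in an assembly other than GRCm38. These promoters start at 79158753 and 88953532 around Wnt7b and at 59041721 and 60034081 around Wnt9a. They are the nearest that could be placed and need not belong to adjacent genes. No genome of that assembly was used here, so no exon, intron, untranslated region or promoter was assigned to any member site, and all positions are as deposited.

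The Wnt9a promoter is shown for its CpG content only. It is the RefSeq sequence from 250 bases before to 50 bases after the gene start, on the plus strand of chromosome 11 in GRCm38.p6, written 5′ to 3′ with every CpG in capitals:
Wnt9a: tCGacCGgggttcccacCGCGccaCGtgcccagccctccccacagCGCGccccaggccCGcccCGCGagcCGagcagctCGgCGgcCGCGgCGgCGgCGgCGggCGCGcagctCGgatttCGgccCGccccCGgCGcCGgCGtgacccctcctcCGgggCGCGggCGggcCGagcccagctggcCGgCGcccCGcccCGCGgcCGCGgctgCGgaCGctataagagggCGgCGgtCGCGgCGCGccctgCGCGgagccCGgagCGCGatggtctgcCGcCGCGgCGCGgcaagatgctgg
These 300 bases hold 58 CpGs, against a median of 7 over 32851 RefSeq promoters of the same length, and 0.11% of those promoters hold at least as many. The promoter could not be placed among the measured sites by its own CpG spacing, so no level is given for it. Wnt7b is named only, without a promoter sequence.

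Values are beta values, that is the methylated share of the calls at each site, given here as percent methylation. The deposited table holds no read counts, so the depth behind a value is unknown. Over all 136069 sites the mean methylation was 68.6% in TVI metastases, 67.5% in MFP metastases and 66.7% in tumors, and the mean differences were 1.12 points for TVI minus MFP metastases, 1.85 points for TVI metastases minus tumors and 0.731 points for MFP metastases minus tumors. Of 24 marker genes of leukocytes, endothelium, lung epithelium, fibroblasts and mammary epithelium, 16 had a promoter sequence, and none of these could be placed. The part of other cell types in the results was therefore not tested.

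Averaged over its 327 sites, the Wnt7b locus was most methylated in TVI metastases, less in MFP metastases and least in tumors. The mean was 61.2%, 61.1% and 61.4% in the 3 TVI metastases, 55.3% in each of the 3 MFP metastases, and 51.2% and 50.9% in the 2 tumors. No sample of one group reached the range of another. The locus was 5.91 points higher in TVI than in MFP metastases (SE 0.114), 10.2 points higher in TVI metastases than in tumors (SE 0.127) and 4.29 points higher in MFP metastases than in tumors (SE 0.127). Over single sites the median differences were smaller, at 2.49, 5.37 and 3.31 points in the same order, beside 0.374, 0.682 and 0.389 points over all sites.

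The Wnt9a locus, averaged over 234 sites, had the same order of groups. The mean was 63.4%, 65.1% and 64.3% in TVI metastases, 57.6%, 57.6% and 57.3% in MFP metastases, and 55.7% and 54.7% in tumors. The groups did not overlap, but the gap between MFP metastases and tumors was narrow. The locus was 6.75 points higher in TVI than in MFP metastases (SE 0.505), 9.07 points higher in TVI metastases than in tumors (SE 0.564) and 2.32 points higher in MFP metastases than in tumors (SE 0.564). The median site differences were 3.02, 3.49 and 0.736 points. After quantile normalization, which gives every sample the same distribution of values, the difference between TVI and MFP metastases was 3.79 points at Wnt7b and 4.88 points at Wnt9a. Taking the median instead of the mean over sites within each sample, and then the difference between groups, gave wider gaps than the median of site differences above, for example 21.8 points at Wnt7b and 15.3 points at Wnt9a between TVI metastases and tumors.

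A site is called when its adjusted p is below 0.05 in limma's moderated test over the 135914 sites that varied, with Benjamini-Hochberg adjustment. Between TVI and MFP metastases 80 Wnt7b sites were called higher (24.5%) and 13 lower (3.98%), and at Wnt9a 66 were called higher (28.2%) and 6 lower (2.56%). Among all tested sites, 10.4% were called higher and 6.53% lower. Between TVI metastases and tumors, 124 Wnt7b sites were called higher (37.9%) and 6 lower (1.83%), and 74 Wnt9a sites higher (31.6%) and 3 lower (1.28%), against 11.4% and 5.24% of all sites. The loci were chosen on these contrasts, so nothing is read from the excess. After quantile normalization 58 Wnt7b sites were called higher and 16 lower in TVI than in MFP metastases, and 54 and 7 Wnt9a sites, beside 8.49% and 8.11% of all sites. For TVI metastases against tumors these were 80 and 11 sites at Wnt7b and 59 and 10 at Wnt9a, beside 7.41% and 7.13% of all sites. Without tumor 1, the Wnt7b sites called in either direction between TVI metastases and tumors numbered 84 instead of 130. Between MFP metastases and tumors no site of either locus was called by limma, and among all tested sites 0.0427% were called higher and 0.00368% lower. An unadjusted p under 0.05 was found at 79 Wnt7b sites and 38 Wnt9a sites. The share of all sites under that looser threshold is not given here, so nothing is read from these 2 counts.

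The sites called higher were selected by their difference, so its size is set beside that of all sites called higher in the table. Between TVI and MFP metastases the median was 21.3 points for the 80 Wnt7b sites and 19.9 points for the 66 Wnt9a sites, beside 18.0 points for all 14120. At least 30 points were reached by 19 of the 80 (23.8%) and 13 of the 66 (19.7%), beside 19.1% of the 14120. Against tumors the medians were 22.6 points at Wnt7b and 24.4 points at Wnt9a, beside 18.7 points for all 15428 such sites. There 36 Wnt7b sites (29.0%) and 28 Wnt9a sites (37.8%) reached 30 points, beside 20.3%. Over all sites of a locus, called or not, the SD of a site within a group had medians from 2.68 to 3.18 points at Wnt7b and from 2.2 to 2.5 points at Wnt9a, and from 1.61 to 1.93 points over all sites.

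A complete step, with every TVI metastasis above every MFP metastasis and every MFP metastasis above both tumors, was seen at 30 Wnt7b sites (9.17%) and 27 Wnt9a sites (11.5%), beside 2.54% of all sites. The opposite step was seen at 1 Wnt7b site and at no Wnt9a site, beside 0.551% of all sites. The metastasis groups lay on opposite sides of both tumors at few sites. MFP metastases were above and TVI metastases below at 5 Wnt7b sites and no Wnt9a site (1.33% of all sites), and the reverse held at 2 Wnt7b sites and 6 Wnt9a sites (1.35% of all sites).

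More sites had groups that did not overlap than were called. Every TVI metastasis was above every MFP metastasis at 109 Wnt7b and 94 Wnt9a sites and below at 25 and 13, beside 17.9% and 10.9% of all sites. Every TVI metastasis was above both tumors at 178 Wnt7b and 116 Wnt9a sites and below at 18 and 21, beside 26.4% and 12.7% of all sites. Every MFP metastasis was above both tumors at 98 Wnt7b and 52 Wnt9a sites and below at 11 and 13, beside 14.5% and 8.11% of all sites.

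**Figure D1:**
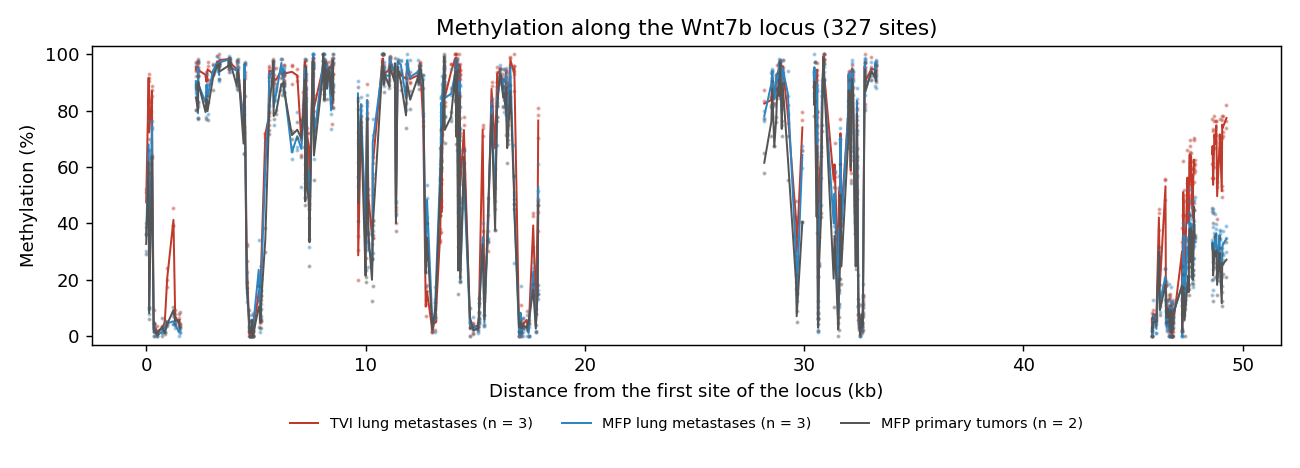
Methylation in percent of the 327 Wnt7b sites by distance in kb from the first site. Points are samples and lines join the group means of TVI metastases (n = 3), MFP metastases (n = 3) and primary tumors (n = 2) within a region, that is a run of sites at most 500 bp apart. The rightmost region, region 7, is where TVI metastases stand farthest from the other groups, at 66.8% against 31.0% in MFP metastases and 26% in tumors.

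Sites at most 500 bp apart were joined into regions of at least 3 sites, which gave 7 regions at Wnt7b and 8 at Wnt9a, numbered by position. Between TVI and MFP metastases, limma over 3085 regions called all 7 Wnt7b regions and all 8 Wnt9a regions higher and none lower, where 42.0% of all regions were called higher and 13.7% lower. Between TVI metastases and tumors it called 7 of 7 and 7 of 8 higher and none lower, against 49.6% and 9.66% of all regions. Between MFP metastases and tumors it called 4 of 7 and 1 of 8 higher and none lower, against 4.93% and 0.324% of all regions. The full step from tumors through MFP to TVI metastases, with no overlap, was seen in 6 of 7 Wnt7b regions and 5 of 8 Wnt9a regions, beside 18.2% of all regions. After quantile normalization, 4 of the 7 Wnt7b regions were called between the metastasis groups, where 30.1% of all regions were called higher and 22.3% lower, and 2 between MFP metastases and tumors, where 1.59% were called higher and 0.746% lower. The median over sites also left 4 and 2 Wnt7b regions called in these comparisons. Leaving out tumor 2 likewise gave 2 called Wnt7b regions between MFP metastases and tumors.

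**Figure D2:**
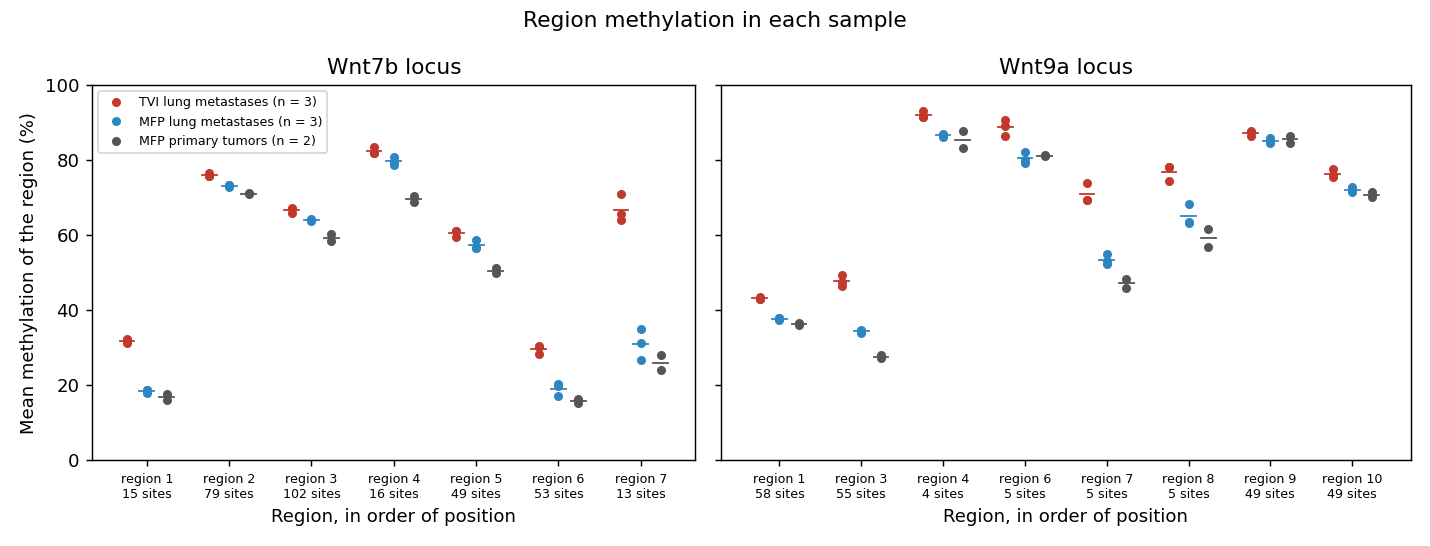
Mean methylation in percent of each region of the Wnt7b locus (left) and the Wnt9a locus (right) in each sample, with regions in order of position. Points are samples, short lines are group means, and the number of sites stands under each region. TVI metastases lie above both other groups in every region drawn, with the widest gap in Wnt7b region 7, while the distance between MFP metastases and tumors is widest in Wnt7b region 4.

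At Wnt7b the TVI metastases stood apart most at the 2 ends of the window. Region 7 (chromosome 15, 85408652 to 85409299, 13 sites) had a mean of 65.6%, 70.8% and 63.9% in TVI metastases, 26.8%, 34.9% and 31.3% in MFP metastases, and 28.1% and 23.9% in tumors. The 3 TVI metastases were far above all other samples, whereas MFP metastases and tumors overlapped. TVI metastases were higher than MFP metastases by 35.8 points (SE 2.47) and higher than tumors by 40.8 points (SE 2.76), and each of the 13 sites was called higher in both comparisons. MFP metastases were 4.99 points above tumors (SE 2.76), which was not called.

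Region 1 (85360043 to 85361567, 15 sites), at the other end, had a mean of 31.2%, 32.1% and 32.4% in TVI metastases, 18.8%, 17.9% and 18.8% in MFP metastases, and 16.2% and 17.8% in tumors. TVI metastases were again the group that differed, by 13.4 points from MFP metastases (SE 0.542) and 15 points from tumors (SE 0.605). Its site 85360178 had the largest difference of the locus, at 63.7%, 83.1% and 70.2% in TVI metastases, 10%, 9.48% and 7.90% in MFP metastases, and 10.3% and 6.06% in tumors. This site was methylated in most calls of every TVI metastasis and in few calls of any other sample. The TVI metastases were 63.2 points above MFP metastases (SE 4.27) and 64.1 points above tumors (SE 4.77).

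Region 6 (85405912 to 85407844, 53 sites) lies next to region 7 and had a low mean, at 30.4%, 28.2% and 30.3% in TVI metastases, 17.3%, 19.8% and 20.3% in MFP metastases, and 15.2% and 16.4% in tumors. The groups did not overlap, and the TVI metastases were 10.5 points above MFP metastases (SE 0.933) and 13.8 points above tumors (SE 1.04). Within it the difference was uneven. A run of 6 sites from 85406808 to 85406847 was at most 12.8% methylated in every sample, while 2 runs near the end of the region were 23.7 and 23.9 points higher in TVI than in MFP metastases. From 85407586 to 85407656, 6 sites averaged 59.9 ± 2.27% in TVI metastases, 36.2 ± 5.98% in MFP metastases and 31.8 ± 3.58% in tumors (SD; n = 3, 3 and 2). From 85407740 to 85407844, 6 sites averaged 54.4 ± 6.25% in TVI metastases, 30.5 ± 3.28% in MFP metastases and 31.0 ± 2.05% in tumors. These runs were picked after their values were seen.

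The 4 inner regions showed another division, with MFP metastases closer to TVI metastases than to tumors in 3 of them. Region 4 (85388224 to 85389961, 16 sites) had a mean of 82.0%, 81.8% and 83.3% in TVI metastases, 80.7%, 78.6% and 79.5% in MFP metastases, and 70.4% and 68.7% in tumors. Both kinds of metastasis were near 80% and both tumors near 70%. MFP metastases were 10.1 points above tumors (SE 0.83), the widest such difference among the 15 regions, and TVI metastases were 12.8 points above tumors (SE 0.83) and 2.77 points above MFP metastases (SE 0.742).

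Region 5 (85390490 to 85393320, 49 sites) averaged 60.6 ± 0.895% in TVI metastases, 57.4 ± 1.25% in MFP metastases and 50.5 ± 0.818% in tumors. Region 3 (85369698 to 85377919, 102 sites) averaged 66.7 ± 0.667%, 64.0 ± 0.334% and 59.4 ± 1.38% in the same order of groups. MFP metastases were above tumors by 6.81 points in region 5 (SE 0.872) and by 4.64 points in region 3 (SE 0.699), more than the 3.25 points (SE 0.78) and 2.73 points (SE 0.626) that separated TVI from MFP metastases. Region 2 (85362309 to 85368576, 79 sites) averaged 76.0 ± 0.443% in TVI metastases, 73.2 ± 0.284% in MFP metastases and 71.0 ± 0.212% in tumors, with 2.85 points (SE 0.395) between the metastasis groups and 2.18 points (SE 0.441) between MFP metastases and tumors. Regions 2 to 5 were the 4 called between MFP metastases and tumors, a count that was 2 under the alternatives named above.

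Region 3 also held most of the sites that went against the locus. Of the 13 Wnt7b sites called lower in TVI than in MFP metastases, 11 lay in it, between 85369698 and 85373553, with differences from −9.28 to −32.5 points. The largest was at 85372848, with 18.2%, 16.1% and 13.3% in TVI metastases, 42.4%, 53.6% and 49.2% in MFP metastases, and 29.7% and 40.3% in tumors. Here the tumors lay between the metastasis groups, with the TVI metastases lowest by 32.5 points against MFP metastases (SE 3.73) and 19.1 points against tumors (SE 4.17). Site 85369710 had the same order, at 28.7 ± 7.95% in TVI metastases, 60.6 ± 6.88% in MFP metastases and 47.1 ± 8.85% in tumors, and was 31.9 points lower in TVI than in MFP metastases (SE 5.32). Among sites called lower against tumors with no overlap, 85369698 had the second largest difference, at 68.0 ± 5.53% in TVI metastases and 84.6 ± 5.49% in tumors, with MFP metastases at 86.1 ± 3.81%.

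Sites called higher stood in the same region. Site 85376827 had 93.2%, 96.1% and 95.8% in TVI metastases, 26%, 51.1% and 56.9% in MFP metastases, and 46.8% and 45.1% in tumors. Almost every call was methylated in TVI metastases, 50.4 points more than in MFP metastases (SE 6.72), which varied widely. Site 85374266 was graded, at 75.3%, 75.9% and 70.9% in TVI metastases, 44.0%, 50% and 39.1% in MFP metastases, and 31.6% and 15% in tumors, and the TVI metastases were 50.7 points above tumors (SE 5.55). The region mean thus sums 20 sites called higher and 11 called lower between the metastasis groups.

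**Figure D3:**
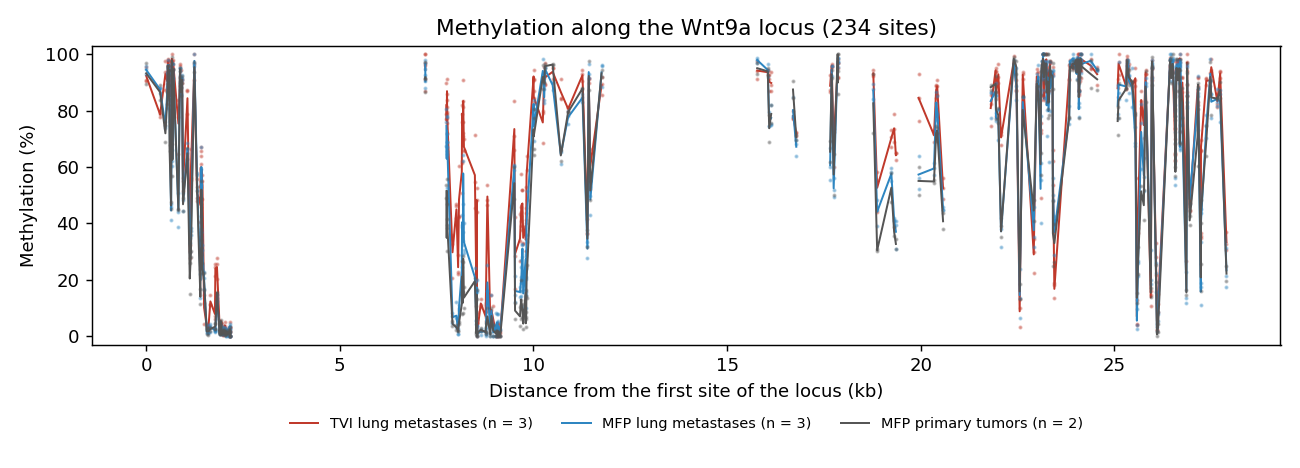
Methylation in percent of the 234 Wnt9a sites by distance in kb from the first site. Points are samples and lines join the group means of TVI metastases (n = 3), MFP metastases (n = 3) and primary tumors (n = 2) within a run of sites at most 500 bp apart. The gap between the groups is seen best in region 3, near the low sites left of the middle, where the means are 47.8%, 34.4% and 27.7% in that order.

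At Wnt9a the groups differed most clearly in region 3 (chromosome 11, 59125772 to 59129778, 55 sites). Its mean was 46.5%, 49.3% and 47.5% in TVI metastases, 34.0%, 34.8% and 34.4% in MFP metastases, and 28.1% and 27.2% in tumors. The 3 groups were separated by several times their spread. TVI metastases were 13.4 points above MFP metastases (SE 0.718) and 20.1 points above tumors (SE 0.802), and MFP metastases were 6.74 points above tumors (SE 0.802). It held 30 of the 66 Wnt9a sites called higher between the metastasis groups and was the only Wnt9a region called between MFP metastases and tumors.

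The largest differences in region 3 lay near sites of low methylation. From 59125929 to 59126507, 10 sites averaged 55.1%, 58.1% and 57.0% in TVI metastases, 22.2%, 25.8% and 22.7% in MFP metastases, and 11% and 12.8% in tumors. These sites had a low mean in tumors and an intermediate mean in TVI metastases. In TVI metastases they ran from 24.5% at 59126074 to 83.5% at 59126205. They contain 59126198, the site with the largest difference from tumors, which had 72.2%, 81.3% and 71.0% in TVI metastases, 32.4%, 37.0% and 33.8% in MFP metastases, and 15.6% and 8.11% in tumors. TVI metastases were 63.0 points above tumors there (SE 4.51) and 40.4 points above MFP metastases (SE 4.03). The neighboring site 59126177 averaged 78.9 ± 3.03% in TVI metastases, 40.4 ± 2.40% in MFP metastases and 21.2 ± 7.63% in tumors, a difference of 57.8 points between TVI metastases and tumors (SE 4.66).

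On average the MFP metastases lay between the other groups in these sites, but not at each of them. Site 59126074 averaged 24.5% in TVI metastases, 1.45% in MFP metastases and 1.86% in tumors. In the 5 sites from 59126169 to 59126224 the mean was 74.5%, 72.9% and 70.2% in TVI metastases, 36.1%, 41.8% and 35.6% in MFP metastases, and 15.6% and 18.6% in tumors, so MFP metastases exceeded tumors by 20.7 points. In the 4 sites that open the region, 59125772 to 59125791, MFP metastases were nearer to TVI metastases, at 81.0 ± 4.03% in TVI metastases, 70.0 ± 6.20% in MFP metastases and 44.4 ± 3.53% in tumors. At Wnt7b the same search, for at least 4 neighboring sites with MFP metastases at least 10 points above tumors, found the 4 sites from 85407315 to 85407353, at 43.6 ± 7.19%, 30.7 ± 4.33% and 13.8 ± 0.745% in TVI metastases, MFP metastases and tumors. Such runs held 3.85% of the Wnt9a sites and 1.22% of the Wnt7b sites, beside 0.375% of all sites.

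**Figure D4:**
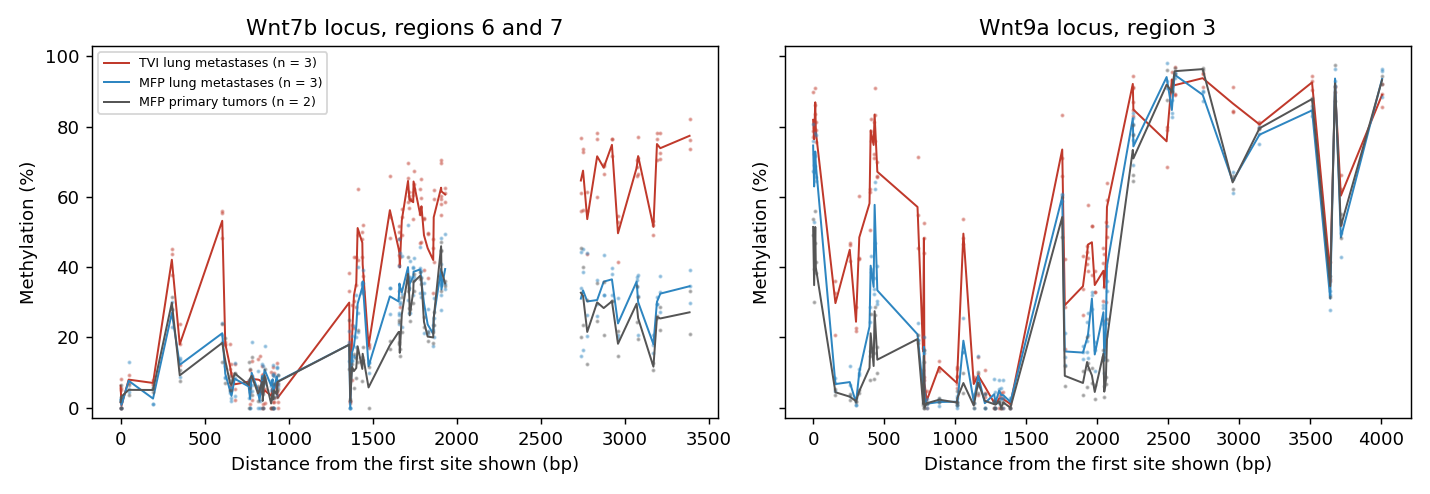
Methylation in percent by distance in bp from the first site shown, in Wnt7b regions 6 and 7 (left) and Wnt9a region 3 (right). Points are samples and lines join the group means within a region (TVI metastases n = 3, MFP metastases n = 3, tumors n = 2). In Wnt9a region 3, the 9 sites from 59126903 to 59127161, near 1.2 kb, stay at or below 14.7% in every sample, while the sites before and after them are apart between the groups.

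Runs of at least 5 neighboring sites at or below 15% in all 8 samples were found 3 times at Wnt9a, with 35 sites, and 5 times at Wnt7b, with 30 sites. At Wnt9a these runs averaged 3.53% in TVI metastases, 2.15% in MFP metastases and 1.60% in tumors. Low sites could still differ, since 4 of the 5 sites from 59126556 to 59126788 were called higher in TVI metastases in both comparisons. The 25 other sites within 500 bp of a run averaged 42.2 ± 0.341%, 22.6 ± 0.624% and 15.9 ± 0.491% in the same order. They were 19.7 points higher in TVI than in MFP metastases and 26.3 points higher than in tumors. A site near a run was left out of it where any sample exceeded 15%, so the split itself puts sites that are higher in TVI metastases outside the runs, and nothing is read from it.

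The 64 Wnt7b sites within 500 bp of a run averaged 48.6 ± 1.91% in TVI metastases, 41.2 ± 1.51% in MFP metastases and 38.0 ± 0.0462% in tumors, which is 7.40 and 10.6 points higher in TVI metastases than in the other groups. Over the whole table, sites chosen in this way were 1.26 points higher in TVI than in MFP metastases and 2.82 points higher than in tumors. The longest run at the Wnt9a locus, 21 sites from 59119915 to 59120188, stayed at or below 5.81% in every sample and closes region 1.

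Region 1 of Wnt9a (59118019 to 59120188, 58 sites) averaged 43.1 ± 0.375% in TVI metastases, 37.7 ± 0.344% in MFP metastases and 36.4 ± 0.304% in tumors, with 5.46 points (SE 0.395) and 6.76 points (SE 0.442) between TVI metastases and the other groups. Its site 59118662 had the largest difference of the locus between the metastasis groups, at 83.4%, 89.8% and 81.9% in TVI metastases, 41.2%, 46.8% and 45.8% in MFP metastases, and 45.2% and 47.5% in tumors. The TVI metastases alone stood apart at this site, by 40.5 points from MFP metastases (SE 4.10).

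A group of small regions followed in the middle of the Wnt9a window. Region 7 (59136795 to 59137379, 5 sites) had a mean of 69.2%, 74.0% and 69.3% in TVI metastases, 53.0%, 55.1% and 52.4% in MFP metastases, and 48.2% and 46.0% in tumors. Its TVI metastases were 23.7 points above tumors (SE 1.59), the widest distance among the Wnt9a regions, and 17.4 points above MFP metastases (SE 1.42). Region 8 (59137964 to 59138597, 5 sites) was similar in order, at 76.9 ± 2.24% in TVI metastases, 65.0 ± 2.83% in MFP metastases and 59.1 ± 3.36% in tumors. In region 6 (59135681 to 59135884, 5 sites) and region 4 (59133798 to 59134159, 4 sites) the mean over sites was 8.22 points (SE 1.14) and 5.46 points (SE 1.04) higher in TVI than in MFP metastases, which overlapped with the tumors. In region 6 this rested on few sites: 1 of the 5 was called higher, 3 had a higher mean, and the median over sites gave −1.65 points. In region 4, 2 of the 4 sites were called higher, and no other site had a higher mean.

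The far end of the Wnt9a window was highly methylated, and the means of its regions differed by few points. Region 9 (59139827 to 59142576, 49 sites) averaged 87.2 ± 0.71% in TVI metastases, 85.2 ± 0.714% in MFP metastases and 85.5 ± 1.23% in tumors, and its difference of 1.69 points between TVI metastases and tumors (SE 0.693) was the only one not called in that comparison. Region 10 (59143106 to 59145916, 49 sites) averaged 76.3 ± 1.07%, 72.0 ± 0.613% and 70.8 ± 0.79%, with 4.32 points (SE 0.656) between the metastasis groups. Between the metastasis groups 5 sites of region 9 and 11 sites of region 10 were called higher, and 1 and 2 were called lower. The largest differences downward of the locus also lay in these regions. Site 59141471 averaged 16.8 ± 2.95% in TVI metastases, 37.0 ± 7.31% in MFP metastases and 33.0 ± 9.41% in tumors, and site 59144723 averaged 78.2 ± 7.76%, 98.1 ± 1.65% and 89.8 ± 6.60%. In region 3, site 59128261 averaged 75.8 ± 6.44%, 94.1 ± 3.73% and 92.0 ± 6.05%. Against MFP metastases the TVI metastases were lower by 20.2 points at 59141471 (SE 4.16) and 19.9 points at 59144723 (SE 3.64), and against tumors by 16.2 points at 59141471 (SE 4.66) and 16.1 points at 59128261 (SE 3.98).

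The 4 Wnt9a sites outside any region had mixed orders. The pair at 59125226 and 59125228 averaged 95.3 ± 5.26% in TVI metastases, 93.4 ± 1.78% in MFP metastases and 91.7 ± 3.88% in tumors, with overlap between all groups. The pair at 59134722 and 59134806 averaged 75.0 ± 0.804%, 73.7 ± 0.77% and 79.1 ± 1.36%, and was the only region or pair of either locus where both tumors, at 80% and 78.1%, lay above every metastasis.

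The differences were largest at sites of intermediate methylation. Among sites with a mean over the 8 samples between 20% and 80%, the mean difference between TVI and MFP metastases was 13.3 points at Wnt7b (116 sites, 92 of them higher) and 16.6 points at Wnt9a (70 sites, 62 higher), beside 4.70 points over all 21668 such sites of the table, of which 61.4% were higher. Against tumors the TVI metastases were 21.4 and 23.2 points higher at the loci and 6.78 points higher over all such sites. The MFP metastases were 8.06 and 6.51 points above tumors, beside 2.09 points. Sites at or below 20% differed between the metastasis groups by 2.03 points at Wnt7b and 3.62 points at Wnt9a, and sites at or above 80% by 1.71 and 2.01 points. A site that changes tends toward an intermediate mean, so part of this pattern follows from the classes themselves.

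The loci were also richer in intermediate sites than the table. In tumors 36.4% of Wnt7b sites and 26.9% of Wnt9a sites lay between 20% and 80%, beside 16.3% of all sites. In TVI metastases sites at or above 80% made up 44.3% of the Wnt7b locus, and in MFP metastases 41.0%, against 33.9% in tumors. At Wnt9a these shares were 52.1% in TVI metastases and 44.0% in MFP metastases, against 43.2% in tumors. Local site density was near that of the table, with a median of 7 other sites within 250 bp at Wnt7b and 10 at Wnt9a, beside 8 over all sites.

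**Figure D5:**
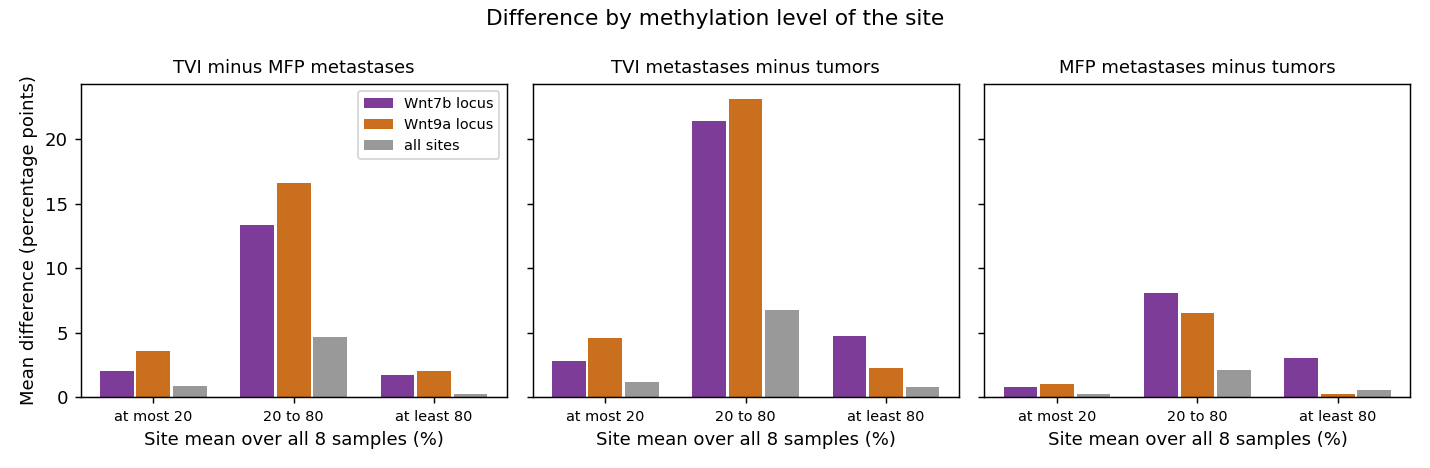
Mean difference in percentage points between groups by the methylation level of the site, taken as its mean over all 8 samples, for the Wnt7b locus, the Wnt9a locus and all sites. The panels are TVI minus MFP metastases, TVI metastases minus tumors and MFP metastases minus tumors, and bars carry no error. In each panel the bars for 20% to 80% are the tallest for both loci, at 13.3 and 16.6 points against 4.70 points for all sites in the first.

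The window edges were set by position and not by value. The last site before the Wnt7b window, at 85359737, averaged 96.8% in TVI metastases, 94.7% in MFP metastases and 98.3% in tumors, and the first site inside, at 85360043, averaged 47.5%, 35.6% and 32.7%. The last site before the Wnt9a window, at 59117947, averaged 52.6%, 44.0% and 49.5%, and the first site inside, at 59118019, averaged 92.4%, 94.5% and 93.3%. Both lower edges therefore cut through a run of sites, and region 1 of each locus is only the part inside. At the upper edges the next measured sites were 316404 bp and 422049 bp beyond the windows.

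The regions elsewhere most like the widest ones of the loci were found by the root mean square difference over the 8 samples, among 2897 regions of at least 5 sites. For Wnt7b region 7 the nearest was on chromosome 5 at 139536455 to 139537926, with 22 sites, 8.12 points away, at 56.6% in TVI metastases, 32.4% in MFP metastases and 34.8% in tumors. The next were on chromosome 2 at 119138269 to 119142003 (8.58 points) and chromosome 10 at 92735628 to 92736296 (9.25 points). For Wnt9a region 7 the nearest was on chromosome 12 at 8791882 to 8795990, with 55 sites, 2.46 points away, at 74.1%, 53.3% and 47.9% in the same order of groups. The next were both on chromosome 11, at 3448104 to 3448749 (3.34 points) and 6966075 to 6971525 (3.41 points). No gene was assigned to these regions.

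The other genes of the pathway could be followed only where a promoter was placed by its CpG spacing, by a rule chosen after the first one matched mirrored spacings nearly as often as real ones. Of 83 Wnt pathway genes, 56 had a promoter sequence and 3 promoters were placed, those of Fzd1, Gsk3b and Ryk. Between TVI and MFP metastases 1 of the 3 was called higher and none lower, where 8.18% of the 220 placed promoters were called higher and 6.82% lower. Between TVI metastases and tumors 1 of 3 was called higher and none lower, against 9.09% and 5.91%. Between MFP metastases and tumors none of the 3 was called, against 0.0% of the 220 in either direction.

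The promoter called higher was that of Fzd1, a Frizzled receptor for Wnt ligands. It is shown because here the measured sites could be laid on the sequence itself. The RefSeq sequence of GRCm38.p6, minus strand, placed at 4758168 to 4758467 of chromosome 5 in the deposited coordinates, is written 5′ to 3′ with the 12 measured CpGs, of 16, in capitals:
Fzd1: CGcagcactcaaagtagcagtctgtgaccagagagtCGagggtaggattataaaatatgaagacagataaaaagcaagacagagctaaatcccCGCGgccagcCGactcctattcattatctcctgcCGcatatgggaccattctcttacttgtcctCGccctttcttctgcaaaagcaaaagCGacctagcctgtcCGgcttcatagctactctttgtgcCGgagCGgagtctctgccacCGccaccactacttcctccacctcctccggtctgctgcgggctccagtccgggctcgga
The mean of these 12 sites was 26.2%, 32.6% and 23.9% in TVI metastases, 4.89%, 6.77% and 7.89% in MFP metastases, and 7.19% and 6.92% in tumors. Every TVI metastasis was above every other sample, and MFP metastases and tumors overlapped. TVI metastases were 21.1 points above MFP metastases (adjusted p = 3.12e-05) and 20.5 points above tumors (adjusted p = 0.000135) in limma over the 220 placed promoters, higher in 3 of 3 samples each time, and MFP metastases differed from tumors by −0.537 points (adjusted p = 0.942).

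The other placed promoters were nearly free of methylation in every group. That of Gsk3b, the kinase that marks beta-catenin for degradation, averaged 1.69 ± 0.168% in TVI metastases, 1.61 ± 0.457% in MFP metastases and 1.52 ± 0.404% in tumors over 20 sites. That of Ryk, a Wnt co-receptor with a kinase-like domain, averaged 1.48 ± 0.258%, 1.81 ± 0.26% and 1.65 ± 0.626% over 10 sites. Neither was called in any comparison.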

How the data were processed

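Genomic DNA of 8 samples was measured by bisulfite sequencing. The labels' protocols give the ZR-Duet DNA/RNA miniprep for extraction and the EZ-DNA Methylation Gold kit for bisulfite conversion. Trimmomatic, Bismark and mm10 appear in the submitters' processing notes, without versions. How sites were selected or filtered on coverage is not given in the sources used here. Per the file headers, the authors deposited 1 table of beta values, the fraction of methylated calls per site from 0 to 1, multiplied here by 100. No coverage came with them, so no interval was computed and precision rests on the spread between samples.

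The members, lists and tests were chosen with earlier results of these data known. Runs of neighboring sites, unmethylated runs with their flanks and the promoter rule used here were set after the values were seen. Sites (135914 with variation, of 136069) and regions (3085, broken at the window edges) entered limma 3.58.1 (R 4.3.3) as a model of the 3 group means with all 8 samples, a shared spread and a variance trend. Tests were two-sided, with Benjamini-Hochberg adjustment and a threshold of 0.05. Differences are in percentage points. The SE of a locus mean uses the pooled spread of the 8 sample means, and that of a site or region is limma's moderated one. The procedure was tested on simulated data. All regions of at least 3 sites are described. Sites named singly are the 2 largest differences in each direction among called sites whose groups do not overlap, per locus and comparison.

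A promoter was placed where at least 8 of its CpGs coincided with sites, no site in it missed a CpG and no other offset came within 2 coinciding CpGs. This placed 240 promoters of 220 genes, against 5 for mirrored spacings. The rule first set, at least 6 CpGs with up to 1 site off, matched 2458 promoters and 2195 mirrored spacings and was not used. Other scalings, filters, joining distances, a replicate block and leaving out each sample were tried as alternatives.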

Additional observations from a re-analysis of the deposited data

Results flagged for a closer look

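Sites where the metastasis groups lay on opposite sides of both tumors are given here, and the difference between the groups in this respect was not tested. At Wnt7b, 5 sites had every MFP metastasis above and every TVI metastasis below both tumors (1.53% of the locus, beside 1.33% of all sites), a share near that of the table. They were 85369710 and 85372848 and the neighbors 85373489, 85373498 and 85373506. The 3 neighbors belong to a run of 5 sites, 85373489 to 85373553, whose mean was 54.1%, 56.5% and 59.6% in TVI metastases, 80.6%, 78.0% and 76.8% in MFP metastases, and 66.3% and 61.9% in tumors. In this run the TVI minus MFP difference was −21.7 points, and the MFP metastases were 14.4 points above tumors, against the direction of the locus mean in the first comparison and with it in the second. Runs this far lower in TVI metastases, by at least 10 points over at least 4 sites, held 1.53% of the Wnt7b sites, none of the Wnt9a sites and 2.2% of all sites. Their share was thus no larger at these loci than over all sites.

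The reverse, with every TVI metastasis above and every MFP metastasis below both tumors, was seen at 2 Wnt7b sites (0.612%) and 6 Wnt9a sites (2.56%), beside 1.35% of all sites. These counts are small, and nothing about the loci is read from them. The Wnt7b sites were 85361286, at 41.3% in TVI metastases, 5.31% in MFP metastases and 9.28% in tumors, and 85366687, at 93.8%, 65.3% and 71.4%. Of the Wnt9a sites, 59143562 had the widest gap, at 91.5% in TVI metastases, 70.0% in MFP metastases and 78.8% in tumors. The other 5 were 59118615, 59119794, 59119847, 59128298 and 59129285.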

How the results depend on the processing

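The locus means kept their direction under the alternatives run. After quantile normalization the differences for TVI minus MFP metastases, TVI metastases minus tumors and MFP metastases minus tumors were 3.79, 6.87 and 3.08 points at Wnt7b and 4.88, 6.21 and 1.34 at Wnt9a. With the median over sites they were 9.56, 21.8 and 12.2 at Wnt7b and 11.7, 15.3 and 3.6 at Wnt9a, and with the same weight for each region 10.2, 15 and 4.79 at Wnt7b. Region counts followed the joining distance, since fewer or more regions were then formed. Of 24 Wnt7b regions at 250 bp, 13 and 17 were called in the first 2 comparisons, 1 of them lower each time. Of 15 Wnt9a regions at 250 bp, 13 and 12 were called there, all higher, and 2 for MFP metastases against tumors. At 1000 bp, 4 of 4 regions were called at each locus in both of the first 2 comparisons. The shares called over all regions at these distances are not given here, so nothing is read from these counts. At Wnt7b quantile normalization left 4 regions called between the metastasis groups and 2 between MFP metastases and tumors, and so did the median over sites (4 and 2); the cause was not tested. Called sites between MFP metastases and tumors went to 6 at Wnt7b without the variance trend. Among sites with a range of at least 5 points they went to 13 at Wnt7b and 8 at Wnt9a. The shares called over all sites under these settings are not given here, so nothing about the loci is read from these counts.

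Differences larger than the pooled SD between samples changed sign in 5 cases. They were Wnt7b region 1 for MFP metastases against tumors (−0.888 with the median), Wnt7b region 5 between the metastasis groups (−1.1 at 250 bp), Wnt9a region 6 between the metastasis groups (−1.65 with the median), Wnt9a region 9 for TVI metastases against tumors (−0.239 after quantile normalization) and Wnt9a region 10 for MFP metastases against tumors (−0.00688 after quantile normalization). The placed pathway promoters numbered 21 at 6 CpGs and 6 at 8 CpGs with up to 1 site off.

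Leaving out each sample gave 71 to 89, 84 to 128 and 0 to 0 called sites at Wnt7b and 58 to 70, 61 to 76 and 0 to 0 at Wnt9a. Regions called were 6 to 7, 7 to 7 and 2 to 4 at Wnt7b and 7 to 8, 7 to 8 and 1 to 2 at Wnt9a. The shares over all sites and regions with each sample left out are not given here. Without tumor 1 the 130 Wnt7b sites called between TVI metastases and tumors became 84. Without tumor 2 the Wnt7b regions called between MFP metastases and tumors became 2, and without TVI metastasis 2 those of Wnt9a became 2. The mean differences ranged from 5.84 to 5.97, 10 to 10.4 and 4.12 to 4.46 points at Wnt7b and from 6.35 to 7.17, 8.58 to 9.56 and 1.83 to 2.81 points at Wnt9a.

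Samples share replicate numbers across groups. The 7 correlations of same-numbered samples ran from −0.0037 to 0.0172. The depth behind the values is unknown, so these cannot tell whether same-numbered samples share an animal. With the replicate block 89, 117 and 0 sites were called at Wnt7b and 65, 70 and 0 at Wnt9a. Called regions were 7, 7 and 2 at Wnt7b and 7, 7 and 1 at Wnt9a. The shares over all sites and regions with this block are not given here. Of 1275 further values of single regions, runs, sites and promoters, 33 had another sign than reported, 24 of them for MFP metastases against tumors. In 28 the reported difference was no larger than the pooled SD between samples, as in Wnt9a regions 4 and 9 for MFP metastases against tumors, which ran from −1.06 to 3.29 and from −1.22 to 0.516 points when each sample was left out. Unknown coverage and 2 tumors limit the precision of every value.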
